A study of Saccharomyces cerevisiae and Schizosaccharomyces pombe with 10 samples.

Results

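A gene with a single intron is the simplest place to read splicing from RNA molecules, since each molecule that spans the intron is either spliced or unspliced. The genes described here are the protein-coding genes of Schizosaccharomyces pombe with exactly 1 annotated intron whose symbol is not that of a ribosomal protein gene (rpl, rps or rpp followed by a digit). There were 1037 of them among 5113 protein-coding genes on chromosomes I to III of the RefSeq annotation (assembly ASM294v3). All data came from 1 nascent RNA library of strain L972 (wild type, h-), grown in rich YES medium at 30 °C to exponential phase, the only S. pombe library among the 10 samples of the series. Nascent RNA, the RNA held by transcribing polymerases, was isolated, ligated at its 3' ends to a DNA adaptor, copied with a SMARTer kit and sequenced as long Pacific Biosciences reads. There was 1 library and there were no replicates, so no difference between genes or classes was tested. Intervals are 95% Wilson intervals that cover counting error only, reads of a gene share their source, and PCR copies could not be told from separate molecules.

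In splicing, the 5' splice site at the end of exon 1 is cut, as the first base of the intron is joined to an adenosine near its 3' end, the branch point. This leaves exon 1 free and the intron, still tied to exon 2, as a lariat. In the next step exon 1 is joined to exon 2 and the intron is released. Introns of fission yeast are mostly short, and they can be removed while the polymerase is still transcribing the gene. The 3' end of a nascent molecule marks where the polymerase stood, except for a molecule that has been cut, whose 3' end marks the cut.

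The sequences below show the introns of 6 of the members with most informative reads, each with 10 nt of exon on either side, read from the RefSeq genome and printed 5' to 3' in the sense of the gene. Capitals mark the first 6 bases of the intron, the letters of a branch point match where one was found, and the last 3 bases. The branch point letters searched were CTAAC or the variant CTAAT, and also the rarer forms CTGAC or, last, CTGAT, on the sense strand within the last 50 nt, and where several matched the one nearest the 3' splice site was taken.
tif301 (II:3314367-3314431, plus strand): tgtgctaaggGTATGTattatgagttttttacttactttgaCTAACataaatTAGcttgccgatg
frs1 (I:4100005-4100075, minus strand): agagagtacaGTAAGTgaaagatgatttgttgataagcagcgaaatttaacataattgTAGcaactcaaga
erg10 (II:4047146-4047225, minus strand): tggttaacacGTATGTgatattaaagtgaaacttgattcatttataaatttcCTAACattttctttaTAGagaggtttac
SPAC9E9.06C (I:4447332-4447409, minus strand): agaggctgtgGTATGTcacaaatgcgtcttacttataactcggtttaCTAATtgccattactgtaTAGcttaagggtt
lcf1 (II:1770102-1770247, plus strand): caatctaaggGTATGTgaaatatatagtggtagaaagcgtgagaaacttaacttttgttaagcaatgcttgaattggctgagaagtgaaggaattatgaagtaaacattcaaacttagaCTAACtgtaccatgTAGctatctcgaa
tef5 (III:1732844-1733110, plus strand): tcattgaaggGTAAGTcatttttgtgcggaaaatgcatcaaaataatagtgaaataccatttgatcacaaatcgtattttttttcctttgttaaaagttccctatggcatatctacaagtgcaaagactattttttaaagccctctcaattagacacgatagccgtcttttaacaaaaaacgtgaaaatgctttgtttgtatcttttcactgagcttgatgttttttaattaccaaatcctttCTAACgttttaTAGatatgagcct

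All 1037 introns were between 34 and 855 nt long, with a median of 66 nt. Of them 962 lay in the coding sequence, 57 in the 5' UTR and 18 in the 3' UTR. The intron began with GTAAGT in 34.0% and with GTATGT in 23.4% of members, against 27.7% and 19.9% of all 5186 introns of protein-coding genes. A branch point match was present in 77.7% of members and in 75.4% of all introns, and its adenosine (the fourth letter of each motif) lay a median of 12 nt before the intron's last base in members. These matches describe letters only.

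On the members' strand lay 980 reads of 246 members. The 65 wholly inside an intronic snoRNA were left out, and 552 that lay inside an intron and crossed an end of its snoRNA were kept apart. This left 363 molecules of 243 members, and 794 members had none. Coverage was thin: 175 members had 1 molecule each, and the most for any member was 16, in gua1, annotated as IMP dehydrogenase, an enzyme of guanine nucleotide synthesis. The aligned length had a median of 229 nt and reached 336 nt. Most molecules began at the gene's start: 237 of 363 (65.3%) started within 10 nt of the annotated mRNA start, 50 farther upstream and 76 farther downstream. The 16 molecules of gua1 give a picture of this, since all but 1 began within 10 nt of the annotated start. They were 91 to 313 nt long with 3' ends spread over exon 1, and none reached the intron, which follows an exon 1 of 490 nt.

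Short molecules that start at the gene's start can only report on introns near it. The 98 members with an informative read, one that began in exon 1 and ended in exon 2, had a median exon 1 of 117.5 nt (30 to 352), against 256 nt in the 939 members without one. In 390 members exon 1 was longer than 300 nt. Of the 98 introns, 97 lay in the first part of the gene (a 5' splice site within the 1st of 3 equal parts of the gene span), 83 in the coding sequence and 15 in the 5' UTR. No informative read came from an intron in a 3' UTR, so the place of the intron within the gene could not be compared beyond this.

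Of the 363 molecules, 108 were spliced, 31 unspliced, 47 ended inside the intron and 163 (44.9%) ended within exon 1. The rest were 5 molecules inside exon 2, 4 that began inside the intron and ended in exon 2, 4 that lay inside the intron and 1 with another gap. Pooled over the informative reads, 108 of 139 were spliced (77.7%, 70.1 to 83.8). A spliced read was seen in 75 of the 98 members with an informative read (76.5%), close to the share over all protein-coding introns with an informative read (78.5%). An unspliced read was seen in 31 of the 98 (31.6%), against 30.1% over all protein-coding introns. Of the 98 members 67 had spliced reads alone, 23 unspliced reads alone and 8 both, but 71 of them rest on a single informative read. The library thus gives pooled shares, and per-gene shares only for a handful of members.

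**Figure D1:**
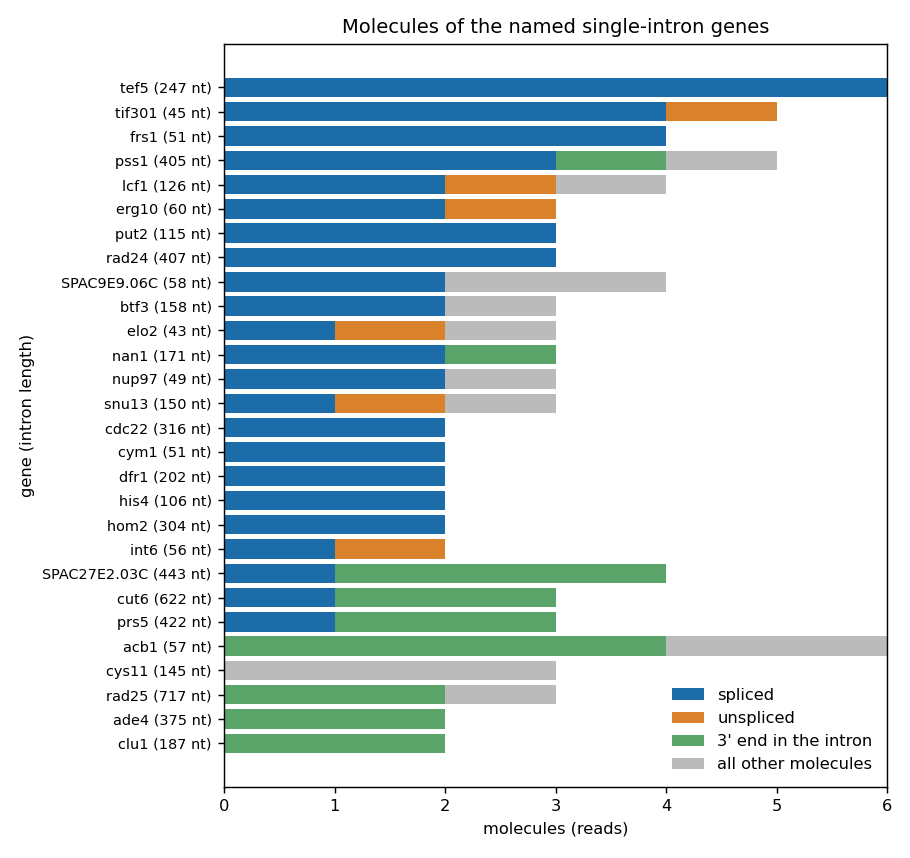
Molecules (reads) of the members named by a rule on read number, with the intron length beside each symbol; bar segments are spliced, unspliced, ending in the intron, and all other molecules. The longest bars, tef5 and acb1, hold 6 molecules each, in tef5 all spliced and in acb1 none spliced.

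The 3 members with most informative reads were tef5, tif301 and frs1. In tef5, which encodes the beta subunit of the elongation factor eEF1B, 6 of 6 reads were spliced (100%, 61 to 100). They ended 9, 52, 91, 186, 188 and 196 nt past the 3' splice site. The intron of 247 nt was therefore already absent in 1 molecule with 9 nt of exon 2, the shortest such distance seen among the members. In tif301, which encodes the eIF3a subunit of an initiation factor, 4 of 5 reads were spliced (80%, 37.6 to 96.4), with 3' ends 53, 230, 241 and 255 nt past the 3' splice site. The unspliced molecule of tif301 ended at 145 nt, farther along than the nearest spliced one, so spliced and unspliced molecules were not sorted by 3' end in this gene. In frs1, the beta subunit of phenylalanyl-tRNA synthetase, 4 of 4 reads were spliced (51 to 100), with 3' ends from 94 to 131 nt past the intron. The frs1 intron holds none of the 4 branch point letter sets, yet all of its informative reads were spliced. In int6, an eIF3 subunit, 1 of 2 reads was spliced, the spliced molecule ending at 210 nt and the unspliced one at 108 nt. Both informative reads of btf3, the beta subunit of the nascent polypeptide-associated complex, were spliced. Another btf3 molecule began inside the intron of 158 nt, was unspliced at its 3' splice site and ended 61 nt past it.

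In lcf1, a long-chain fatty acid CoA ligase, 4 molecules had different forms: 1 ended at the last base of exon 1, 1 was unspliced and ended 1 nt past the 3' splice site, and 2 were spliced and ended at 108 and 110 nt. In erg10, the acetyl-CoA acetyltransferase of sterol synthesis, 2 of 3 reads were spliced, with 3' ends at 143 and 243 nt, and the unspliced one ended at 202 nt. In elo2, annotated as a putative member of the GNS1/SUR4 family, the unspliced molecule ended at 11 nt and the spliced one at 224 nt. For erg10, as for tif301, an unspliced molecule had thus been transcribed past the point where another was already spliced. The acetyl-CoA carboxylase gene cut6 has an intron of 622 nt, and its 3 molecules were 1 spliced read and 2 that ended inside the intron, 91 and 272 nt from the 5' splice site.

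Molecules of acb1, which encodes an acyl-CoA binding protein, differed from these. All 6 ended within 15 nt around the 5' splice site, 4 of them 5 to 7 nt into the intron and 2 of them 5 and 7 nt before the last base of exon 1. They began 69 to 128 nt upstream of the annotated mRNA start, so they also lie apart from most members at the 5' end. No acb1 molecule reached exon 2.

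In put2, a dehydrogenase of proline breakdown with its intron in the 5' UTR, 3 of 3 reads were spliced, and 2 of 2 were in SPAC9E9.06C (threonine synthase), his4 (histidine synthesis), hom2 (aspartate semialdehyde dehydrogenase), cdc22 (the large subunit of ribonucleotide reductase) and dfr1 (dihydrofolate reductase, annotated as fused to a lysophospholipase). The purine gene ade4 and the phosphoribosyl pyrophosphate synthetase gene prs5, whose introns are 375 and 422 nt long, had 2 molecules each that ended in the intron, and prs5 had 1 spliced read besides. Both ade4 molecules ended at the same base, 120 nt into the intron, which also holds the snoRNA snoR58. In cys11, a cysteine synthase, no molecule was aligned past the 5' splice site. Of its 3 molecules, 2 ended exactly at the last base of exon 1 and 1 ended 2 nt before it.

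The 14-3-3 proteins Rad24 and Rad25 are closely related binders of phosphorylated proteins in the DNA damage checkpoint, and both genes have a long intron. In rad24 (407 nt) all 3 molecules were spliced, with 3' ends 39, 59 and 215 nt past the intron. In rad25 (717 nt) 2 molecules ended in the intron, 95 and 129 nt from the 5' splice site, and 1 ended 1 nt before the last base of exon 1. Among the other members named by read number, pss1, an Hsp110-type chaperone, had 3 spliced reads and 1 ending in the intron of 405 nt. SPAC27E2.03C, annotated as an Obg-like ATPase, had 1 spliced read and 3 that ended 137, 202 and 245 nt into its intron of 443 nt. Both molecules of clu1 ended in the intron. The pore component nup97 and the metalloendopeptidase gene cym1 had 2 of 2 reads spliced. The U3 snoRNP-associated gene nan1 had 2 spliced reads and 1 ending in the intron, and snu13, which encodes a protein of the U3 snoRNP and of the U4 snRNP, had 1 of 2 reads spliced.

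The kinds of molecule seen differed with intron length. Introns of up to 50 nt were spliced in 20 of 29 reads (69.0%, 50.8 to 82.7) and those of 51 to 100 nt in 36 of 54 (66.7%, 53.4 to 77.8). Introns of over 100 and up to 200 nt were spliced in 25 of 29 reads (86.2%, 69.4 to 94.5) and those over 200 nt in 27 of 27 (87.5 to 100). Both classes of short introns had nearly the same share, and the classes of longer introns stood higher. Read length moves with this: the longest read of the whole library was 356 nt and the longest unspliced member read 323 nt, while spliced reads spanned up to 765 nt of the genome. An unspliced molecule over an intron of more than 356 nt could not have been read whole in reads of this length, and the part of this in the higher share was not tested beyond a limit on span. When only molecules that span at most 300 nt of the genome were kept, so that the unspliced form would fit the read lengths, 31 of 54 reads were spliced (57.4%, 44.2 to 69.7). That choice was made after the values were seen. With it, introns of up to 50 nt were spliced in 8 of 15 reads and those of 51 to 100 nt in 22 of 35 (62.9%, 46.3 to 76.8), while those of over 100 and up to 200 nt had 4 reads and the longest class none.

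**Figure D2:**
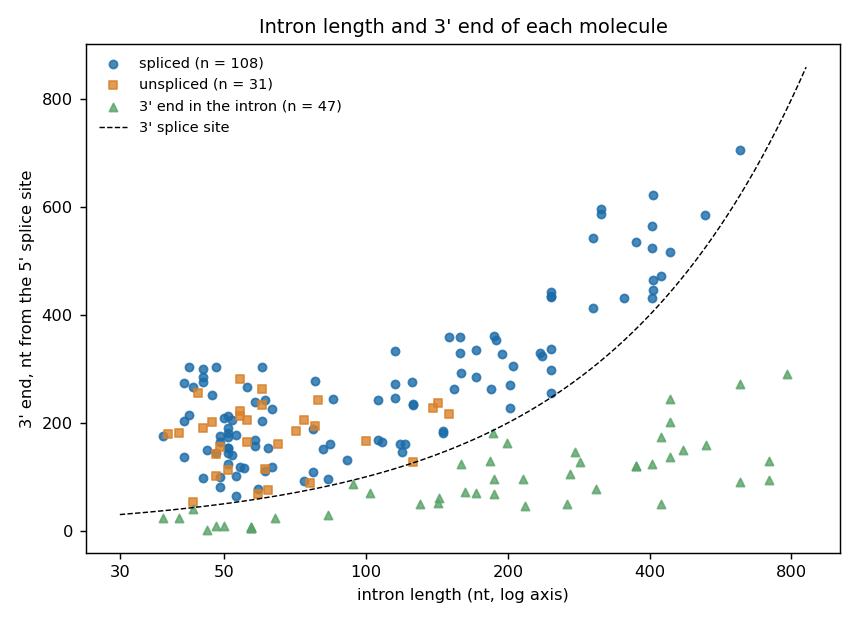
Intron length (nt, log axis) against the position of each molecule's 3' end in nt from the 5' splice site; circles are spliced, squares unspliced, triangles molecules that end in the intron, and the dashed curve is the 3' splice site. Unspliced molecules are found up to an intron length of 150 nt, and spliced ones up to 622 nt.

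Molecules that ended in the intron were mostly those of longer introns. Of the 187 molecules that entered the intron region from exon 1 (spliced, unspliced, with another gap or ending inside), 47 ended in the intron (25.1%, 19.5 to 31.8), in 37 members. The share was 14.2% (17 of 120) with introns of at most 150 nt and 42.6% (40 of 94) with spans of at most 300 nt. The limit on span kept 40 of the 47 but only 54 of the 139 informative reads. The introns of the 47 had a median length of 187 nt, against 66 nt over all members, and 22 of the 47 were in introns over 200 nt. The 3' ends lay from 2 to 290 nt into the intron (median 86 nt), and 7 of them within its first 10 nt, of which 4 belonged to acb1. Few had reached the intron's end: 3 of 47 ended within 10 nt of the 3' splice site, in psm3 (a cohesin subunit), tts1 and mrp21 (a mitochondrial ribosomal protein), a choice made once their values were known. Of the 34 in introns with a branch point match, 31 ended before its adenosine. Since a longer intron offers more positions for a 3' end and leaves less read length for exon 2, the counts are not free of length. Among the 47, 2 were in ade4 and 1 in rlp7, whose introns hold a snoRNA.

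The largest pile of 3' ends lay at the last base of exon 1. There 31 molecules of 30 members ended, while the 10 positions before it held 11 molecules in all and the first 10 of the intron held 7, with at most 4 at any of these 20 positions. These molecules are 14.2% (10.2 to 19.5) of the 218 that began in exon 1 and reached at least this base. A free exon 1 after the first step of splicing and a molecule of a polymerase at this base would have the same 3' end, and they cannot be told apart. Spliced reads ended at least 9 nt past the 3' splice site, and unspliced reads at least 1 nt past it. The length the aligner needed to place a splice was not known. Whether some of the 31 were spliced molecules with too few bases of the next exon to be aligned was not tested. The 31 molecules were 30 distinct alignments, 20 of them began within 10 nt of the annotated mRNA start, and 11 came from the earlier and 20 from the later sequencing movies, which held 146 and 217 of the 363 molecules. Of members with a molecule that reached the base, 19.2% (30 of 156) had one ending there, against 16.1% of introns of all protein-coding genes.

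The junctions of 5 of these members are shown, chosen after their values were seen as those with most molecules ending there and then most molecules in all (lcf1, shown above, also belongs to them), with the base at which the molecules ended in capitals and the intron starting just after it.
cys11 (II:848108-848127, plus strand): gccaaagctGgtatgttttt
fps1 (I:1339571-1339590, minus strand): gtacaagaaTgtatgtgagt
ada1 (II:380551-380570, plus strand): tttaagacaTgtaagtattt
glo2 (I:1696680-1696699, plus strand): agcctgagaGgtaagtgaag
mtr10 (II:1766240-1766259, plus strand): tcagaaaagTgtaagtcagt
cys11 makes cysteine, fps1 encodes a farnesyl diphosphate synthase, ada1 an adenosine deaminase, glo2 a hydroxyacylglutathione hydrolase and mtr10 a karyopherin that carries proteins into the nucleus. Others with 1 such molecule were zwf1, the glucose-6-phosphate dehydrogenase of the pentose phosphate pathway, atf1, a stress transcription factor, dis2, a protein phosphatase catalytic subunit, and gcn1, a regulator of translation initiation. They were picked with their values known. The annotated exon 1 of the 31 molecules was 52 to 352 nt long and the intron 39 to 855 nt, with 29 of 31 in the coding sequence. The longest, of 352 nt, is that of fps1, whose molecule began near the mRNA start but had only 186 aligned nt. It therefore held a gap within exon 1 that is not the annotated intron. The spliced read of fps1 also began at the mRNA start, and its 285 aligned nt were fewer than exon 1 alone.

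**Figure D3:**
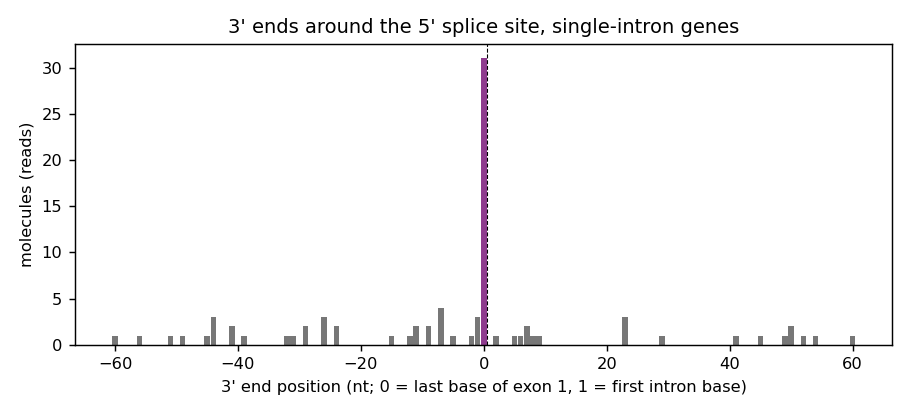
Number of molecules (reads) of single-intron genes that began in exon 1, by 3' end position in nt around the 5' splice site, where 0 is the last base of exon 1. The bar at 0 holds 31 molecules and no other position shown holds more than 4.

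A few molecules were nearly whole introns. The 4 molecules that lay inside an intron without a snoRNA, in snu13, mrt4, mpg1 and SPCC24B10.03, all began at the 1st or 2nd base of the intron and ended 8 to 21 nt before its last base. They spanned nearly the whole intron of 150, 335, 216 and 187 nt. The last 30 nt of each intron are shown with the branch point letters in capitals.
snu13 (I:2041296-2041325, minus strand): attcgttttattgcataCTAACattgttag
mrt4 (II:1761154-1761183, plus strand): gctgttttaCTAACtgtttattttcaatag
mpg1 (III:2012800-2012829, plus strand): tcccttaCTAACtgagggttgtctttttag
SPCC24B10.03 (III:906622-906651, plus strand): tacataCTAACccatttattatttttgtag
In snu13 the molecule ended 11 nt before the intron's last base and the branch point adenosine lies 9 nt before it. In SPCC24B10.03 these distances were 21 and 20 nt. In mrt4 and mpg1 the molecule ended nearer the intron's end than the adenosine, at 13 against 17 nt and at 8 against 19 nt. All 3 molecules of snu13 thus had different forms: 1 unspliced, 1 spliced and 1 inside the intron that lacked its last 11 nt. Molecules that began at the 1st or 2nd base of the intron were also seen in the snoRNA hosts rlp7 (2 molecules) and ade4 (1 molecule).

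The 3' end of an uncut nascent molecule gives the length of exon 2 already transcribed. Of the 10 informative reads that ended within 25 nt past the 3' splice site, 5 were spliced and 5 unspliced. The spliced ones were in tef5 (9 nt), rsc9, a subunit of a chromatin remodeller (12 nt), msn5, a karyopherin (13 nt), pcm1, an mRNA cap methyltransferase (18 nt), and uso1, a tether between endoplasmic reticulum and Golgi (19 nt). The unspliced ones were in lcf1 (1 nt), stt3, a subunit of oligosaccharyltransferase (9 nt), elo2 (11 nt), por1, a mitochondrial outer membrane channel (12 nt), and atg1, a kinase of autophagy (13 nt). The 2 sets overlapped, from 9 to 13 nt, so that both outcomes were read at the same distances. An unspliced read was called from 1 nt of exon 2, while the length the aligner needed to place a splice was not known. The 2 kinds may therefore not have been seen equally well at the shortest distances.

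Farther on, between 26 and 50 nt, 15 of 15 reads of 14 members were spliced (79.6 to 100). Of the reads that ended 51 to 100 nt past the intron, 26 of 35 were spliced (74.3%, 57.9 to 85.8). The next 100 nt held 59 reads, of which 45 were spliced (76.3%, 64.0 to 85.3), and beyond 200 nt 17 of 20 were (85.0%, 64.0 to 94.8). No steady rise with distance was seen past 25 nt, and the intervals of these 4 bins overlap. With spans of at most 300 nt the shares were 6 of 6, 8 of 16 (50%, 28.0 to 72.0), 13 of 23 (56.5%, 36.8 to 74.4) and 1 of 1. The unspliced molecules therefore included many with a 3' end well past the intron. Their median distance was 108 nt (1 to 228), close to that of the spliced ones, 110.5 nt (9 to 281).

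**Figure D4:**
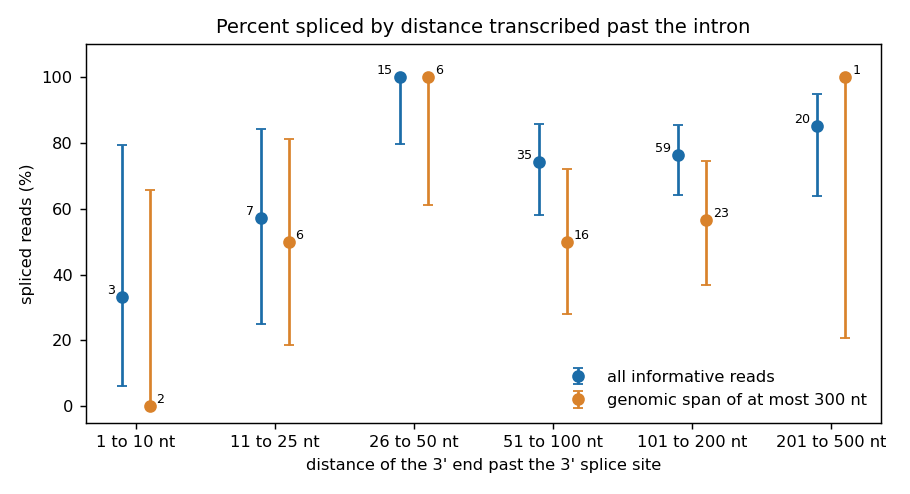
Percent of informative reads that were spliced, by distance of the 3' end past the 3' splice site (nt), with 95% Wilson intervals and the number of reads beside each point; blue is all informative reads and orange those that span at most 300 nt of the genome. The bin of 26 to 50 nt, 100% spliced in 15 reads, stands above its neighbours, and the orange points are lower at 51 to 200 nt.

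Position within the gene separated few molecules. Of the 139 informative reads, 137 ended before the stop codon, of which 106 were spliced (77.4%, 69.7 to 83.6), and 2 in the 3' UTR, both spliced. None of the 363 molecules ended within 10 nt of the annotated mRNA end, where a finished mRNA would end. By a rule of 3 counts, not a Wilson interval, a share of up to 0.826% (3 of 363) remains possible. Only 21 members have a spliced mRNA no longer than the longest read, and 2 of these had a molecule, so finished mRNAs of most members could not have been read from start to end. Pieces of finished mRNA in the preparation cannot be told apart from nascent molecules. By place of the intron, 17 of 21 reads were spliced in 5' UTR introns (81.0%, 60.0 to 92.3) and 91 of 118 in coding introns (77.1%, 68.8 to 83.8), whose intervals overlap. With spans of at most 300 nt these were 4 of 8 and 27 of 46 (58.7%, 44.3 to 71.7).

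Classes of intron letters had overlapping intervals. Introns that begin with GTATGT were spliced in 40 of 49 reads (81.6%, 68.6 to 90.0), those with GTAAGT in 39 of 50 (78.0%, 64.8 to 87.2) and those with other letters in 29 of 40 (72.5%, 57.2 to 83.9). With spans of at most 300 nt the shares were 55.6% of 18, 57.9% of 19 and 58.8% of 17 reads. Introns with CTAAC were spliced in 59 of 77 reads (76.6%, 66.0 to 84.7), with CTAAT in 18 of 26 (69.2%, 50 to 83.5), and those with none of the 4 letter sets in 24 of 27 (88.9%, 71.9 to 96.1). Under the limit on span these were 15 of 29 (51.7%, 34.4 to 68.6), 5 of 12 (41.7%, 19.3 to 68.0) and 8 of 10 (80%, 49.0 to 94.3).

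Lists of genes drawn by words in symbols and product names had few informative reads each and are not complete, and their shares are set beside 77.7% over all members. Translation factors were spliced in 13 of 15 reads (86.7%, 62.1 to 96.3), 6 of them from tef5, and genes whose product name holds a word such as dehydrogenase, synthase, transferase or transporter in 20 of 23 (87.0%, 67.9 to 95.5). That list misses ligases and other metabolic genes with an unspliced read, among them lcf1, elo2, ade1 and pcs60, so its share is not that of metabolic enzymes as a whole. Chromatin and transcription genes were spliced in 8 of 9, with the unspliced read in rpb2, which encodes a large subunit of RNA polymerase II, and the mitochondrial list in 6 of 7, with the unspliced read in mrpl12. The mitochondrial channel gene por1, whose 1 informative read was unspliced, is not in that list. The lists with more unspliced than spliced reads were small. In pre-mRNA splicing 1 of 3 reads was spliced, in smf1, while those of lsm7 and smb1, which like smf1 encode subunits of the ring-shaped protein complexes on spliceosomal RNAs, were unspliced. In the secretory pathway 2 of 5 were spliced, in tlg1 and uso1, and the reads of vps1, sec28 and SPBC1711.09C were unspliced. Both cytoskeletal reads, of the Arp2/3 complex genes arc1 and arc2, were unspliced, and for ubiquitin and proteasome genes 1 of 2 reads was spliced, both of rpn2. Of the 1037 members 606 were in no list, and these were spliced in 58 of 74 reads (78.4%, 67.7 to 86.2).

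In percent spliced, single-intron genes were near the 1329 multi-intron genes outside ribosomal proteins and below the ribosomal protein genes. They were spliced in 77.7% of 139 reads, against 71.9% of 331 calls (66.8 to 76.5) over all introns of the multi-intron genes. There a read was called once at each intron it spans, and the intervals treat calls of the same molecule as separate counts. The difference was 5.79 points, and its counting interval includes 0 (-3.08 to 13.7). It was -0.160 points when only introns of at most 150 nt were compared. At the first introns of the multi-intron genes 66.8% of 217 reads were spliced (60.3 to 72.7). The gap to these came to 10.9 points (1.23 to 19.8), and to 7.86 points (-8.25 to 23.1) for spans within 300 nt. The introns differ in length, with a median over informative reads of 74 nt in single-intron genes, against 51 nt over all and 49 nt over first introns of multi-intron genes. Against the 65 single-intron ribosomal protein genes, spliced in 94.7% of 227 reads (91.0 to 97.0), the share was lower by 17.0 points (difference -17.0, -24.9 to -9.85). Limited to spans within 300 nt, it came to -28.7 points (-43.5 to -12.7), 57.4% of 54 reads against 86.2% of 65. The members' reads ended a median of 110 nt past the intron, against 157 nt for the ribosomal protein reads.

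Molecules that ended at the last base of exon 1 were 14.2% (31 of 218) in the single-intron genes, 11.4% (32 of 280) at first introns of multi-intron genes and 1.20% (3 of 250, 0.409 to 3.47) in single-intron ribosomal protein genes. The difference from the ribosomal protein genes was 13.0 points (8.41 to 18.3) and that from first introns of the multi-intron genes 2.79 points (-3.06 to 8.95). Over all introns of the multi-intron genes, 13.3% (61 of 458) ended at the last base of the upstream exon. The difference from these was 0.901 points (-4.37 to 6.86). Among molecules that span at most 300 nt, the shares were 23.0% (28 of 122) in the single-intron genes and 22.0% (51 of 232) over all introns of multi-intron genes. They were 18.2% (30 of 165) at first introns and 3.53% (3 of 85) in ribosomal protein genes. Molecules that ended in the intron were 25.1% of those entering it in the single-intron genes and 15.9% (63 of 397, 12.6 to 19.8) over all introns of multi-intron genes. They were 11.7% (29 of 248, 8.27 to 16.3) at the first introns of multi-intron genes and 7.29% (18 of 247, 4.66 to 11.2) in ribosomal protein genes. For spans within 300 nt the share was 42.6% (33.0 to 52.6) in the single-intron genes and 24.3% (18.6 to 31.1) over all introns of multi-intron genes. It was 17.8% (12.2 to 25.1) at first introns and 20.7% (13.4 to 30.7) in ribosomal protein genes, so the order of these 2 sets turned round. In the single-intron genes the limit kept 40 of the 47 molecules ending in the intron but 54 of the 139 informative reads. It left no informative read of an intron over 200 nt, so it does not compare like with like here. In the single-intron genes the share ending in the intron moved with intron length. The median intron length over informative reads was 74 nt in these genes, 49 nt at first introns of multi-intron genes and 69 nt in ribosomal protein genes. These medians leave out the molecules that ended in the intron, whose introns had a median of 187 nt in the single-intron genes. The part of length was not tested across the gene sets. Since there is 1 library, none of these differences was tested.

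**Figure D5:**
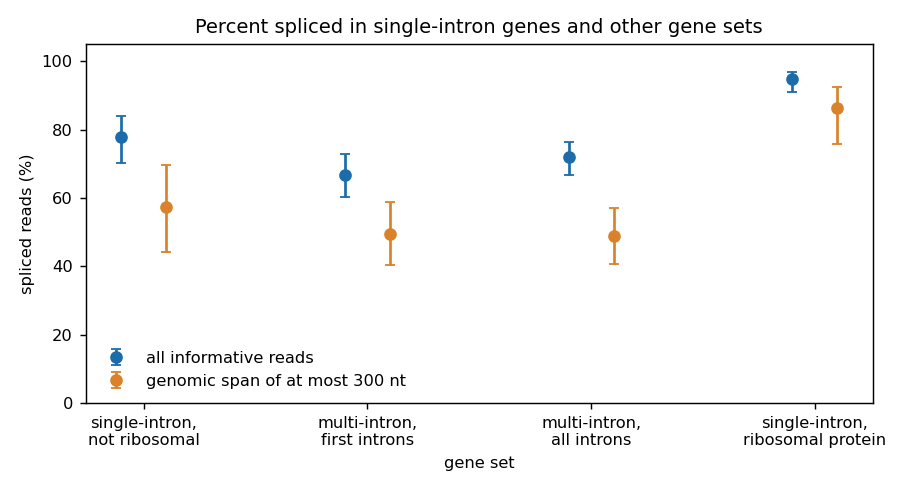
Percent of informative reads that were spliced in single-intron genes outside ribosomal proteins and in 3 other gene sets, with 95% Wilson intervals; blue is all informative reads and orange those that span at most 300 nt of the genome. Over all introns of multi-intron genes, a read counts once at each intron it spans. Single-intron genes stood at 77.7% (blue) and 57.4% (orange), and single-intron ribosomal protein genes at 94.7% and 86.2%.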

How the data were processed

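The deposited file of the fission yeast library holds 16126 genome alignments of 16122 reads with start, end, strand and aligned blocks; its score is 40 in every line of the deposited file and played no part. Cutadapt 1.8 and sacCer3 are named in the submitters' processing notes, but sacCer3 is not the build of these alignments. The aligner was not given in the sources used here. Against the RefSeq genome, all 698 gaps equal to an annotated intron had GT-AG ends on the annotated strand, and 0 reads passed a chromosome end. The 454 alignments outside chromosomes I to III were left out.

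Each read went to the same-strand protein-coding gene sharing most aligned bases. Another 2 reads lay mostly in a non-coding gene and were dropped. Introns were gaps between annotated exons of at least 20 nt, since 42 exon breaks in 38 genes are shorter; without this limit 1054 genes would qualify. A read was called spliced when a gap matched the intron to within 3 nt at each side, and unspliced when 1 block covered it. Calling was checked on simulated reads whose blocks were built from annotated introns, which checks the calling code but not the alignment. Shares have 95% Wilson intervals and differences Newcombe intervals (scipy 1.17.1, Python 3.11.15).

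The genes named are the 20 members with most informative reads, those with at least 2 reads ending in the intron (up to 10), at least 2 unspliced reads (0 members) or at least 2 reads ending within 1 nt of the last base of exon 1. The rule on sequences allows 8 introns, of which rad24 and btf3 are not printed. Members and lists were chosen with earlier results of these data known. Alternatives covered overhangs, gap tolerance, identical alignments, movies, intron length, read span and left-out genes.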

Additional observations from a re-analysis of the deposited data

How the results depend on the processing

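No paired analysis was possible because the analysis uses 1 library, and replicates could not be left out for the same reason. Over the alternatives run, 96 values stayed within the counting interval of the reported value and 16 moved outside it. The pooled share of spliced reads (77.7%) was 69.6% with introns of at most 150 nt and 57.4% with spans of at most 300 nt. The share of entering molecules that ended in the intron (25.1%) was 14.2% and 42.6% under the same settings. With spans of at most 300 nt, the share was 58.7% in coding introns, 50% in 5' UTR introns, 57.4% both in the first part of the gene and before the stop codon, 55.6% for GTATGT, 57.9% for GTAAGT and 25.0% (1 of 4) for introns of over 100 and up to 200 nt. By distance past the intron, 0% of 2 reads within 10 nt were spliced, 50% of those at 51 to 100 nt, 56.5% in the next 100 nt and 100% (1 read) beyond 200 nt. The limit on span removed reads of both kinds, from 108 to 31 spliced and from 31 to 23 unspliced. It kept 40 of the 47 molecules that ended in the intron. Its part in each of these changes was not tested. Without tef5, the bin of 1 to 10 nt was 0% of 2 reads against 33.3% of 3. The difference from multi-intron genes over all introns (5.79 points, -3.08 to 13.7) was -0.160 points with introns of at most 150 nt. Identical alignments counted once, earlier movies (76.9%) and later movies (78.2%) left the pooled share within its interval. Of the 98 members with an informative read 71 have 1, so depth does not allow shares per gene.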

Other observations

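Introns of 8 members hold a snoRNA, and their reads were set aside above. Of these, 65 reads lay wholly inside the annotated snoRNA, in rlp7, SPAC29A4.02C, ero11 and fta3, and 552 lay inside the intron but crossed an annotated snoRNA end. These 552 were 281 reads in nog2, 108 in fta3, 92 in ipa1, 35 in gua1, 19 in ero11, 9 in ade4, 7 in rlp7 and 1 in SPAC29A4.02C. None of the 8 hosts had an informative read.

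The only molecules that ended past the annotated mRNA end were 1 of tim10, 20 nt past it, and 1 of ept1, 149 nt past it, both lying in exon 2.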
